A study of Mus musculus with 5 samples.

Results

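The expression of 10 genes of the matrix metalloproteinase system was followed in Lewis lung carcinoma (LLC), a mouse lung cancer cell line. The 7 metalloproteinases were MMP2, MMP3, MMP10, MMP11, MMP12, MMP13 and MMP14, and the 3 tissue inhibitors were TIMP1, TIMP2 and TIMP3. They were picked by gene symbol, as 10 of the 13979 symbols that the 3 tables used here share, and all 10 had a value above 0 in each library. All values below are levels, meaning FPKM (fragments per kilobase of transcript, normalized to library size) rescaled so that each library sums to 1e+06 over those shared symbols. The scale takes account of transcript length, so levels can be set side by side between genes as well as between libraries.

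RNA-Seq was available for 5 groups with 1 library each: Control, BMN, PAZA, BMN/PAZA low dose and BMN/PAZA high dose. BMN is an inhibitor of PARP, the enzyme that marks DNA breaks with poly-ADP-ribose, and PAZA is a polymer micelle carrier built from azacytidine, a DNA methyltransferase inhibitor. In the 2 BMN/PAZA groups BMN was loaded into the PAZA carrier, and the low and high dose are named as in the labels, which do not give the dose itself. According to the methods of the study, LLC cells were grown under the skin of female C57BL/6 mice, bought at a few weeks of age, Control mice received saline, all treatments were intravenous and repeated, and tumors were taken the day after the last dose. The sample labels instead describe LLC cells in culture, treated for 72 h, with lung given as the tissue, and neither source states how many tumors entered a library. None of the values below could be checked against a replicate, and every difference given is a difference between libraries.

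Markers of other cell types were read first, because stroma and immune cells make many of these enzymes. All 7 macrophage markers (ADGRE1, CSF1R, CD68, MRC1 and the C1Q genes), all 9 fibroblast markers, all 4 pan-leukocyte markers and all 5 endothelial markers were above 0 in every library. The summed level of the macrophage markers lay between 328 and 473, and PTPRC, the gene of the leukocyte antigen CD45, lay between 27.0 and 46.0. The leukocyte sum lay between 86.0 and 126 and the endothelial sum between 27.4 and 47.3. Of the lung alveolar markers, SFTPC, SFTPB and SCGB1A1 were listed at 0 in BMN and in BMN/PAZA low dose, the libraries for which these genes could be read, and AGER was at 0 in BMN and at 0.351 FPKM in BMN/PAZA low dose. The libraries thus held RNA of leukocytes, fibroblasts and endothelium, which a culture of LLC cells alone does not contain, while 3 of the 4 lung markers were at 0 in both BMN and BMN/PAZA low dose. In such tissue, fewer cells of a type and less RNA per cell cannot be told apart.

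Lists for skin, muscle and fat also differed between the libraries. The keratinocyte sum (4 of 5 markers measured) was 67.2 in Control and 201 in BMN, but 8.0 in PAZA, 1.84 in BMN/PAZA low dose, where KRT5 and KRT1 were at 0, and 12.4 in BMN/PAZA high dose. The skeletal muscle sum (5 of 5) was 7.88 in Control, 165 in BMN, 52.5 in PAZA, 11.2 in BMN/PAZA low dose, where CKM was at 0, and 184 in BMN/PAZA high dose. The adipocyte sum (3 of 4) ran from 44.2 in Control, with ADIPOQ at 0, to 114 in PAZA. The keratinocyte and muscle sums thus differed between libraries far more widely than the macrophage sum.

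Matrix metalloproteinases are zinc-dependent proteases that cut collagens, elastin, proteoglycans and other proteins of the extracellular matrix. Most are secreted as inactive proenzymes whose prodomain must be removed, often by plasmin or by another metalloproteinase, and the TIMP proteins then bind the active site and block it. In tumors much of this mRNA comes from fibroblasts and macrophages rather than from the cancer cells. Transcripts measure neither the proenzyme, nor its activation, nor its inhibition.

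Of the 10 genes, 4 lie in a cluster on mouse chromosome 9 (GRCm38) within 238 kb, with Mmp1a and Mmp1b among them: Mmp13 at chr9:7272514-7283331, Mmp12 at chr9:7344381-7369499, Mmp3 at chr9:7445822-7455975 and Mmp10 at chr9:7502352-7510240, all on the plus strand. Secreted metalloproteinase genes of this cluster are textbook targets of AP-1, the Fos and Jun dimer, and promoter sequences are shown for these 4 because MMP12 and MMP13 had the widest ranges over the libraries and the 4 share a sequence feature. The lines give the 150 bases before the transcription start of RefSeq (GRCm38.p6), plus strand, 5′ to 3′, with capitals for the AP-1 motif (TGAGTCA on either strand, read as TGACTCA from the other one) and for the TATA motif (TATAAA on either strand).
Mmp13: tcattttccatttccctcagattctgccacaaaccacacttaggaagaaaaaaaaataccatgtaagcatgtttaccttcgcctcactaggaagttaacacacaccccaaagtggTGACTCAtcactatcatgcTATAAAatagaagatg
Mmp12, the second start: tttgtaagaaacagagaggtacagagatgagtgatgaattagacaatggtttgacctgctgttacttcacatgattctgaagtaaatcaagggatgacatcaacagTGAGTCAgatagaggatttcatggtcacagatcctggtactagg
Mmp3: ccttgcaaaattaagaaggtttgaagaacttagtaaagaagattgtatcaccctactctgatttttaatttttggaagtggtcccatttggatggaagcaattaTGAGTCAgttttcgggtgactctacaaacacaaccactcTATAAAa
Mmp10: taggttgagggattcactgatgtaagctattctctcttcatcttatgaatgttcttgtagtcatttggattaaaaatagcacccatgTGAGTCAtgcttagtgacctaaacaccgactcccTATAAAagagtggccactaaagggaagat
The stretches are chr9:7272364-7272513 for Mmp13, chr9:7347224-7347373 for Mmp12, chr9:7445672-7445821 for Mmp3 and chr9:7502192-7502341 for Mmp10. The motifs do not overlap each other. Counted from the motif's leftmost base to the start, AP-1 letters stood 35 bases before the start of Mmp13, 44 before the second of the 2 starts of Mmp12, 46 before that of Mmp3 and 63 before that of Mmp10. TATA letters stood 16, 7 and 29 bases before the starts of Mmp13, Mmp3 and Mmp10. The other Mmp12 start, with its 150 bases at chr9:7344247-7344396, had neither motif.

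Promoters were matched for 9 of the 10 genes, all but Mmp2. The AP-1 letters were found in the 150 bases of 4 of these 9 genes, the 4 of the chromosome 9 cluster, and the TATA letters in 3. No match was found for Mmp11, Mmp14, Timp1, Timp2 or Timp3, nor for Mmp8 and Mmp27, which also belong to the cluster. Over 32851 RefSeq promoters of mouse, 2.84% held the AP-1 letters in the same 150 bases, 7.57% the TATA letters and 0.310% both. These shares count promoters, whereas the 4 of 9 counts genes, with Mmp12 included through 1 of its 2 starts. The 4 genes are neighbors in 1 cluster and were shown partly for this feature, so count and share are not a test. A match is a description of the letters, and binding was not measured. As shown next, the 4 genes did not share one pattern over the libraries.

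TIMP2, which inhibits metalloproteinases and also holds pro-MMP2 to MMP14 on the cell surface for activation, had the highest mean level of the 10 genes. Its gene lies at chr11:118301069-118355740 on the minus strand. TIMP2 stood at 305 in Control, 290.3 in BMN, 254 in PAZA, 309 in BMN/PAZA low dose and 268 in BMN/PAZA high dose. The highest library was 1.22 times the lowest, a range of 0.28 on the log2(level + 1) scale. Of 11214 symbols with a mean level of at least 1, only 3.36% had a smaller range, and the median range was 0.76.

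TIMP1, a secreted inhibitor that binds most metalloproteinases but MMP14 only weakly, lies at chrX:20870166-20874735 on the plus strand. TIMP1 was at 104 in Control, 153 in BMN, 188 in PAZA, 116 in BMN/PAZA low dose and 103 in BMN/PAZA high dose. PAZA was the highest library and BMN the next, while the other 3 lay within 103 to 116. Timp1 overlaps Syn1, a gene on the opposite strand with levels of 2.83 to 8.29, and it is not given in the sources used here whether fragments were counted by strand.

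TIMP3, the inhibitor that stays bound to the matrix and also blocks ADAM17, lies at chr10:86300372-86349506 on the plus strand. Its level was 16.4 in Control, 14.9 in BMN, 18.9 in PAZA, 8.09 in BMN/PAZA low dose and 5.36 in BMN/PAZA high dose. Both BMN/PAZA libraries lay below the 3 others, and the ratio of the highest to the lowest was 3.53. Syn3, which overlaps Timp3 on the opposite strand, had levels of at most 0.597.

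MMP12, macrophage metalloelastase, which digests elastin, had the highest mean level of the metalloproteinases. In BMN, however, MMP14 was above it, at 79.2 against 75.8. MMP12 stood at 233 in Control, 75.8 in BMN, 317 in PAZA, 258 in BMN/PAZA low dose and 159.9 in BMN/PAZA high dose. BMN alone was the lowest library and PAZA alone the highest, a ratio of 4.18. The range of 2.05 was the widest of the 10 genes and exceeded that of 96.8% of the 11214 symbols. Mmp1b overlaps the end of Mmp12 on the opposite strand and was listed at 0 in BMN and in BMN/PAZA low dose.

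MMP13, collagenase 3, is the main enzyme of rodents that cuts fibrillar collagen. Its level was 56.0 in Control, 15.5 in BMN, 43.0 in PAZA, 34.0 in BMN/PAZA low dose and 13.6 in BMN/PAZA high dose. BMN and BMN/PAZA high dose were the low libraries and Control the high one, a ratio of 4.11. Its range of 1.96 exceeded that of 96.1% of symbols. MMP12 and MMP13 lie next to each other on the chromosome, and their ratio was 4.17 in Control, 4.88 in BMN, 7.37 in PAZA, 7.59 in BMN/PAZA low dose and 11.7 in BMN/PAZA high dose.

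MMP3 and MMP10 are the stromelysins 1 and 2, close relatives that cut proteoglycans and fibronectin and can activate procollagenases. MMP3 was at 8.22 in Control, 17.5 in BMN, 8.44 in PAZA, 7.03 in BMN/PAZA low dose and 7.05 in BMN/PAZA high dose. MMP10 was at 9.61 in Control, 4.68 in BMN, 8.55 in PAZA, 15.9 in BMN/PAZA low dose and 5.43 in BMN/PAZA high dose. The BMN library thus held the highest MMP3 and the lowest MMP10. The ratio of MMP3 to MMP10 was 0.855 in Control, 3.73 in BMN, 0.987 in PAZA, 0.441 in BMN/PAZA low dose and 1.3 in BMN/PAZA high dose.

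MMP14 (MT1-MMP), at chr14:54431612-54445364 on the plus strand, is anchored in the cell membrane and activates pro-MMP2. It was at 57.5 in Control, 79.2 in BMN, 73.6 in PAZA, 67.7 in BMN/PAZA low dose and 52.9 in BMN/PAZA high dose, a ratio of 1.5 between the extremes. MMP2, gelatinase A, lies at chr8:92827291-92853420 on the plus strand. Its level was 7.87 in Control, 20.1 in BMN, 10.1 in PAZA, 9.75 in BMN/PAZA low dose and 6.95 in BMN/PAZA high dose. BMN stood apart as the high library for MMP2, and the other 4 lay within 6.95 to 10.1. MMP2 amounted to 0.254 of the MMP14 level in BMN and to between 0.131 and 0.144 of it in the others.

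MMP11, stromelysin 3, which is activated inside the cell by furin, had the lowest mean level of the 10 genes. It was at 2.98 in Control, 5.4 in BMN, 2.55 in PAZA, 4.92 in BMN/PAZA low dose and 4.68 in BMN/PAZA high dose. The 3 libraries with BMN lay above the 2 without it. The gene lies at chr10:75923222-75936496 on the minus strand and overlaps Chchd10 on the plus strand, whose levels of 1.08 to 6.62 were of the same order, and the part of that gene in the MMP11 level was not tested.

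Read counts were not used here, and the depth could only be estimated from the steps between low FPKM values, which gave, in units of 1e+06 fragments, 6.20 to 8.65 per library. At that depth the MMP11 levels rest on about 22 to 56 fragments and those of MMP10 on about 34 to 99, whereas those of MMP12 rest on about 1525 to 5357 and those of TIMP2 on about 3565 to 4841. The levels of MMP3, with about 46 to 141 fragments, and of MMP2, with about 79 to 279, lie between. Small differences in MMP11, MMP10 and MMP3 are accordingly the least precise.

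**Figure D1:**
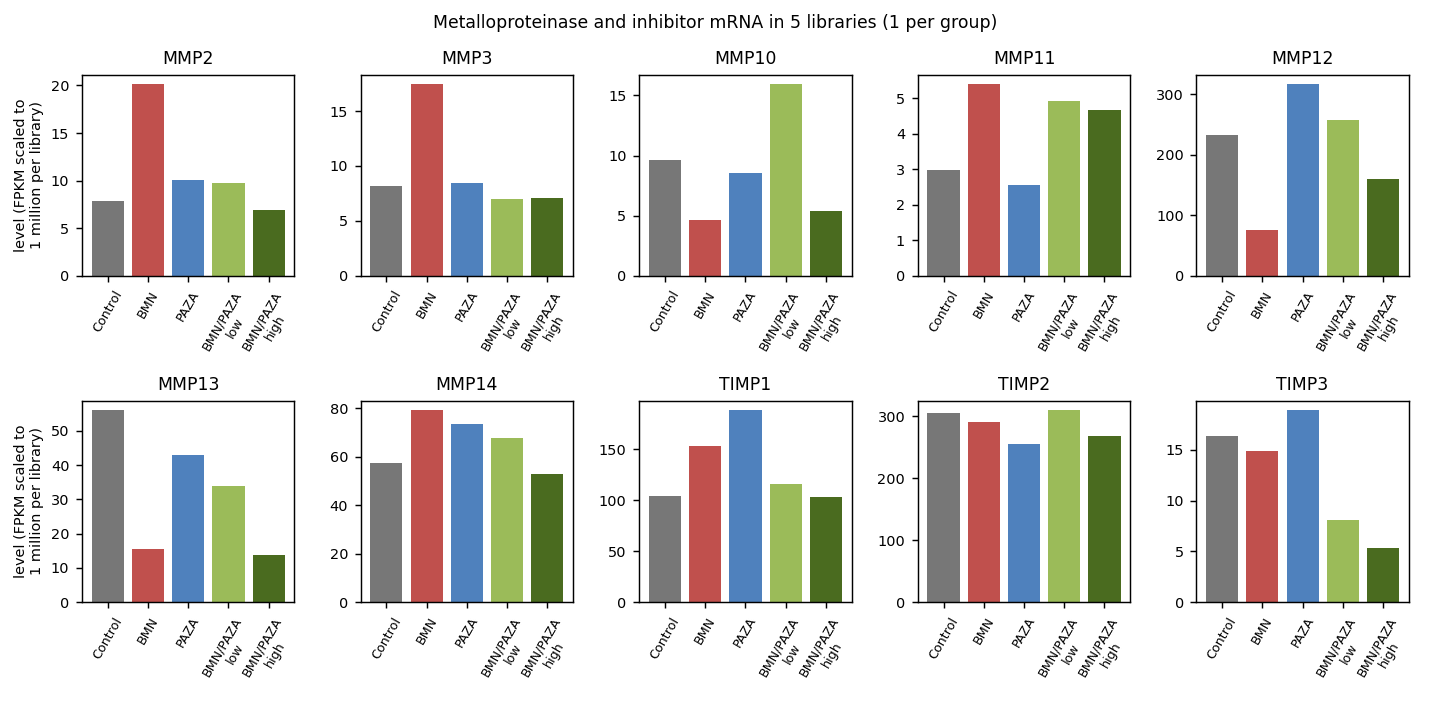
Level of each of the 10 genes (FPKM scaled to a sum of 1e+06 per library, linear axis from 0) in the 5 libraries, 1 bar per library and no error bars because each group has 1 library. MMP12 and MMP13 are low in BMN, at 75.8 and 15.5, where MMP2 and MMP3 are at their highest, at 20.1 and 17.5, while TIMP2 stays between 254 and 309.

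The summed level of the 7 metalloproteinases was 375 in Control, 218 in BMN, 463 in PAZA, 397 in BMN/PAZA low dose and 251 in BMN/PAZA high dose. MMP12 made up 62.1% of this sum in Control, 34.7% in BMN, 68.4% in PAZA, 64.9% in BMN/PAZA low dose and 63.8% in BMN/PAZA high dose. Without MMP12 the sum of the other 6 was 142 in Control and in BMN, 146 in PAZA and 139 in BMN/PAZA low dose, and 90.6 in BMN/PAZA high dose. Within the 142 of BMN, the lower MMP13 and MMP10 stood beside higher MMP14, MMP2, MMP3 and MMP11. BMN/PAZA high dose was the low library of the sum without MMP12.

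The 3 inhibitors varied less in sum, at 425 in Control, 458 in BMN, 462 in PAZA, 433 in BMN/PAZA low dose and 376 in BMN/PAZA high dose. TIMP2 made up between 55.1% of that sum, in PAZA, and 71.7%, in Control. The ratio of the metalloproteinase sum to the inhibitor sum was 0.883 in Control, 0.476 in BMN, 1.003 in PAZA, 0.917 in BMN/PAZA low dose and 0.666 in BMN/PAZA high dose. Without MMP12 this ratio was 0.311 to 0.334 in 4 libraries and 0.241 in BMN/PAZA high dose. These are ratios of mRNA levels and say nothing of free enzyme.

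The 10 genes split by how far they ranged. MMP12, MMP13, TIMP3, MMP10, MMP2 and MMP3 had ranges from 2.05 down to 1.20 on the log2(level + 1) scale, each wider than that of at least 81.4% of symbols. TIMP1 (0.86) and MMP11 (0.85) were nearer to the median range of 0.76. MMP14 (0.57) and TIMP2 (0.28) were below it.

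The genes whose pattern over the 5 libraries was most like that of the 3 widest were sought among 7337 symbols with a highest level of at least 10. Likeness was the root mean square difference of centred log2(level + 1) over 5 libraries. Nearest to MMP12 were NDUFA7 (0.18), a subunit of respiratory complex I, MRPL23-PS1 (0.20), a pseudogene, and WFDC17 (0.22), which myeloid cells express. Nearest to MMP13 were UCKL1 (0.23), a uridine kinase relative, IL7R (0.23), the interleukin 7 receptor, and RPS24-PS3 (0.27), a pseudogene. Nearest to TIMP3 were ACTA2 (0.20), smooth muscle actin, INPP5B (0.20) and BCL2A1D (0.21). With 5 points for each gene, these likenesses are a description only.

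A gene is called past 2-fold here where log2 of (level + 1) differed by at least 1 between 2 libraries, and the share of all genes past 2-fold in the same direction is given with the count of the 10 genes in each comparison, to be read beside later counts of that comparison too. The 8 comparisons reuse the same 5 libraries, so their values are set side by side and are not independent.

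BMN against Control asked what the PARP inhibitor did alone, and 5 of the 10 genes were above 0 and 5 below. Under scaling by the median of ratios, each BMN/PAZA library against BMN gave the same split. MMP13 was lower by a log2 fold change of −1.78 and MMP12 by −1.61, whereas MMP2 was higher by 1.25 and MMP3 by 1.002. So 2 of the 10 genes were at least 2-fold higher, against 4.66% of all 13704 genes, and 2 were at least 2-fold lower, against 2.25%. The call of MMP3 lies at the limit itself, and its value was 0.89 when libraries were scaled by the median of ratios. MMP10 was lower by −0.90, just short of 2-fold, and it passed the limit with a pseudocount of 0.1 (−1.02) and with the sum taken without the 100 most abundant symbols (−1.05). Of the rest, MMP11 (0.69), TIMP1 (0.56) and MMP14 (0.46) were above 0, and TIMP2 (−0.07) and TIMP3 (−0.13) were close to 0. The median of the 10 genes was 0.19 and that of all genes 0.09.

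**Figure D2:**
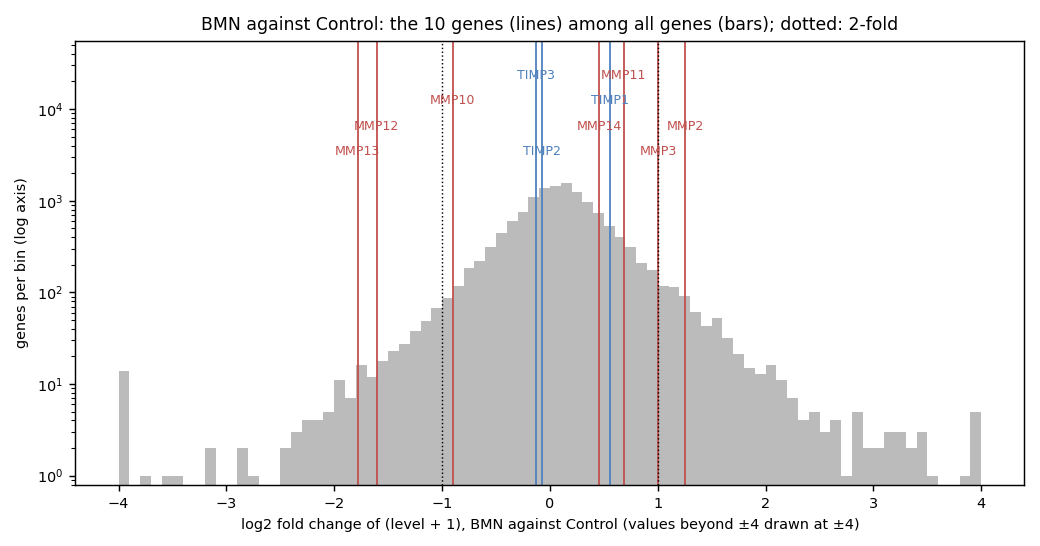
Log2 fold change of level + 1 in BMN against Control, with grey bars for the number of all 13704 genes per bin (log axis), red lines for the 7 metalloproteinases, blue lines for the 3 inhibitors and dotted lines at 2-fold. MMP13 and MMP12 lie in the left tail at −1.78 and −1.61, MMP2 at 1.25 and MMP3 at 1.002 lie on the right, and the inhibitors lie between −0.13 and 0.56.

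Fibroblast markers moved with MMP2 and MMP3 in that comparison. The fibroblast sum was 388 in Control, 1054 in BMN, 608 in PAZA, 360 in BMN/PAZA low dose and 398 in BMN/PAZA high dose, with none of the 9 markers at 0, and 7 of 9 were at least 2-fold higher in BMN. As a percentage of the fibroblast sum, MMP2 was 2.03% in Control and 1.91% in BMN, and it lay between 1.66% and 2.71% in all libraries. MMP3 was 2.12% of it in Control and 1.66% in BMN. Other genes of the 10 did not keep pace: MMP14 was 14.8% of the fibroblast sum in Control and 7.51% in BMN, TIMP3 4.22% and 1.41%, and MMP13 14.4% and 1.48%. The keratinocyte and skeletal muscle sums were also higher in BMN, at 201 against 67.2 and at 165 against 7.88. The part of these cells in the levels of MMP2 and MMP3 was not tested.

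In BMN, where MMP12 and MMP13 were low, most macrophage markers were not. The macrophage sum was 414 in Control, 473 in BMN, 443 in PAZA, 426 in BMN/PAZA low dose and 328 in BMN/PAZA high dose, with none of the 7 markers at 0, and 6 of 7 were above Control in BMN, but all 7 were below it in BMN/PAZA high dose, with medians of all genes of 0.09 in BMN and −0.17 in the high dose. MMP12 equalled 56.3% of the macrophage sum in Control, 16.0% in BMN, 71.5% in PAZA, 60.5% in BMN/PAZA low dose and 48.7% in BMN/PAZA high dose. MMP13 equalled 13.5% of it in Control, 3.29% in BMN, 9.71% in PAZA, 7.97% in BMN/PAZA low dose and 4.15% in BMN/PAZA high dose. Relative to these markers, BMN was the lowest library for both genes. MRC1 was the largest part of the macrophage sum in BMN, at 244 against 189 in Control. C1QB was the 1 marker below Control there, at 50.7 against 77.9. The part of these cells in MMP12 and MMP13 was not tested.

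**Figure D3:**
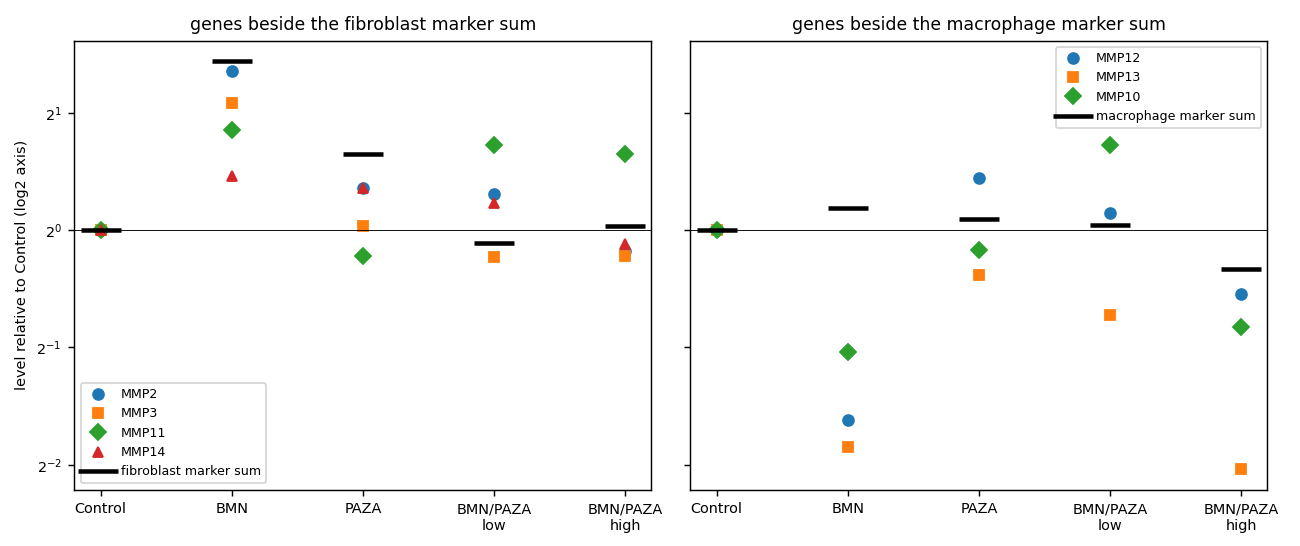
Level relative to Control (log2 axis) of 4 metalloproteinases beside the summed fibroblast markers (left, black bars) and of 3 others beside the summed macrophage markers (right, black bars), 1 library per group. In BMN the fibroblast sum of 1054 against 388 in Control goes with the higher MMP2 and MMP3, while MMP12 and MMP13 lie far below a macrophage sum of 473 against 414.

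PAZA against Control asked what the azacytidine carrier did alone, and here none of the 10 genes was past 2-fold. The counts were 0 higher, against 3.47% of 13979 genes, and 0 lower, against 3.53%. TIMP1 had the highest value, a log2 fold change of 0.85, from 104 to 188. MMP12 followed with 0.44 and MMP14 with 0.35, and MMP13 was the lowest at −0.37. MMP3 differed by 0.03. Fibroblast markers summed to 608 against 388 between these libraries, the keratinocyte sum 8.0 against 67.2, the muscle sum 52.5 against 7.88, the adipocyte sum 114 against 44.2 and the neutrophil sum 124 against 72.8, and their part was not tested. In every library most of the neutrophil sum was S100A8 and S100A9, so that sum mainly follows these genes.

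BMN/PAZA low dose against Control also left all 10 genes within 2-fold, with 0 higher, against 3.65% of 13832 genes, and 0 lower, against 3.54%. TIMP3 was nearest to the limit at −0.93, and with a pseudocount of 0.1 it passed it at −1.01. It was followed by MMP13 at −0.70, MMP10 at 0.67 and MMP11 at 0.57. MMP12 differed by 0.15, from 233 to 258, and TIMP2 by 0.02. The fibroblast sum was 360 against 388 and the macrophage sum 426 against 414, whereas the keratinocyte sum was 1.84 against 67.2, with all 4 of its markers past 2-fold lower, and the neutrophil sum 122 against 72.8, with 1 of 5 past 2-fold higher, and their part was not tested.

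BMN/PAZA high dose against Control had 0 of the 10 genes at least 2-fold higher, against 3.2% of 13682 genes, and 2 at least 2-fold lower, against 4.95%. The 2 were MMP13, from 56.0 to 13.6 with a log2 fold change of −1.96, and TIMP3, from 16.4 to 5.36 with −1.45. MMP10 was lower by −0.72 and MMP12 by −0.54, and MMP11 was higher by 0.51. The values of 9 of the 10 genes were below 0, but the median of all genes was also below 0 here, at −0.17, and with scaling by the median of ratios 4 of 10 were below 0. The fibroblast sum was 398 against 388 and the macrophage sum 328 against 414, while the neutrophil sum (5 of 6 markers) was 233 against 72.8, with RETNLG at 0 in Control, the muscle sum 184 against 7.88 and the keratinocyte sum 12.4 against 67.2. Within the neutrophil sum, S100A8 was at 132 against 35.8 and S100A9 at 93.2 against 30.8, while CXCR2 was at 4.55 against 3.42. Of the 5 neutrophil markers, 1 was below Control. The part of these cells in MMP13 and TIMP3 was not tested.

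BMN/PAZA low dose against BMN compared the loaded carrier with the drug alone. At least 2-fold higher were 3 of the 10 genes, against 3.22% of 13885 genes: MMP12 (1.75), MMP10 (1.58) and MMP13 (1.08). At least 2-fold lower was MMP3 (−1.20), 1 of 10 against 5.86%, and MMP2 (−0.98) lay just inside the limit. The 4 genes past 2-fold are the 4 of the chromosome 9 cluster, but with a pseudocount of 0.1 MMP2 joined them, at −1.04, and in the table of these 2 libraries as deposited MMP3 did not pass, at −0.98. The fibroblast sum was 360 against 1054, the keratinocyte sum 1.84 against 201 and the muscle sum 11.2 against 165, while the neutrophil sum was 122 against 64.6, with 1 of 5 markers past 2-fold higher, and their part was not tested.

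BMN/PAZA high dose against BMN gave the opposite balance. MMP12 (1.07) was the 1 gene at least 2-fold higher, against 2.33% of 13639 genes. MMP2 (−1.41), TIMP3 (−1.32) and MMP3 (−1.20) were the 3 at least 2-fold lower, against 6.89%. MMP10 (0.18) and MMP13 (−0.18) differed little, so MMP13 was low in both BMN and BMN/PAZA high dose. The median of all genes was −0.27 here, and MMP3 was at −0.87 under scaling by the median of ratios. The fibroblast sum was 398 against 1054 and the keratinocyte sum 12.4 against 201, while the muscle sum was 184 against 165. Macrophage markers summed to 328 against 473, with all 7 below BMN, and neutrophil markers to 233 against 64.6, with 3 of 5 past 2-fold higher and RETNLG at 0 in BMN. The part of these cells was not tested.

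BMN/PAZA low dose against PAZA had 0 of the 10 genes at least 2-fold higher, against 2.45% of 13885 genes, and 1 at least 2-fold lower, against 2.78%. This was TIMP3, from 18.9 to 8.09 with a log2 fold change of −1.13. MMP10 (0.83) and MMP11 (0.74) were higher and TIMP1 (−0.70) was lower, all short of 2-fold. MMP2, MMP14 and MMP3 lay between −0.05 and −0.23. Fibroblast markers summed to 360 against 608, the muscle sum 11.2 against 52.5 and the keratinocyte sum 1.84 against 8.0, and their part was not tested.

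BMN/PAZA high dose against low dose addressed the dose. Here 0 of the 10 genes were at least 2-fold higher, against 2.34% of 13979 genes, and 2 were at least 2-fold lower, against 3.38%. MMP10 went from 15.9 to 5.43, a log2 fold change of −1.40, and MMP13 from 34.0 to 13.6, one of −1.26. MMP12 was lower by −0.69, TIMP3 by −0.52, MMP2 by −0.43 and MMP14 by −0.35. MMP3 was at 7.03 in the low and 7.05 in the high dose. The median of the 10 genes was −0.39 and that of all genes −0.13, and the macrophage sum was 328 against 426. The muscle sum was 184 against 11.2, with all 5 markers past 2-fold higher, the neutrophil sum 233 against 122 and the keratinocyte sum 12.4 against 1.84, and their part was not tested.

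**Figure D4:**
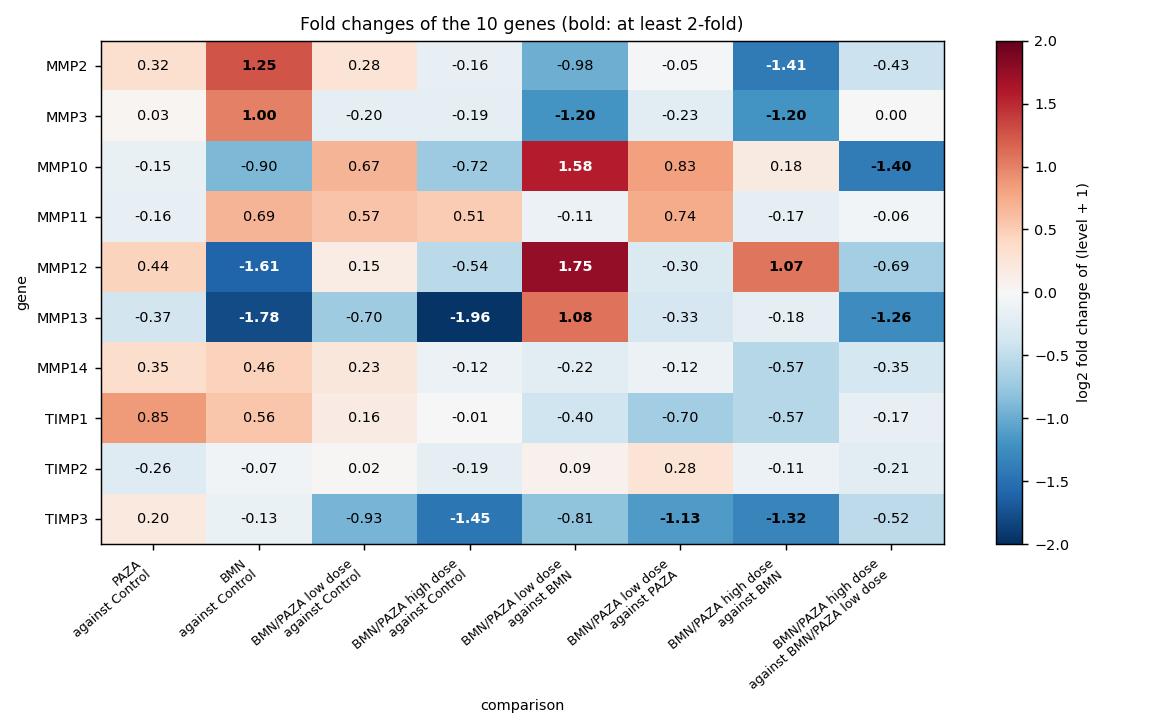
Log2 fold change of level + 1 of the 10 genes (rows) in the 8 comparisons (columns), with red for higher, blue for lower and bold for at least 2-fold. MMP13 is past 2-fold in 4 comparisons, with −1.78 in BMN and −1.96 in BMN/PAZA high dose against Control, and no gene is bold in PAZA or BMN/PAZA low dose against Control.

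Within the chromosome 9 cluster the neighbors did not move as 1 block. In BMN against Control, MMP13 and MMP12 were past 2-fold lower, MMP3 was at the limit on the higher side and MMP10 was at −0.90. MMP8, the neutrophil collagenase next to Mmp10, was at 3.36 in Control, 3.97 in BMN, 4.14 in PAZA, 5.44 in BMN/PAZA low dose and 3.18 in BMN/PAZA high dose. MMP27 was at 2.19, 1.25, 0.567, 1.22 and 1.03 in the same order. The other 4 cluster genes, Mmp1a, Mmp1b, Mmp7 and Mmp20, were listed at 0 in BMN and in BMN/PAZA low dose and were not among the shared symbols. Over the 6 measured cluster genes, BMN against Control had 1 gene past 2-fold higher and 2 lower, PAZA 0 and 1 (MMP27), BMN/PAZA low dose 0 and 0, and BMN/PAZA high dose 0 and 1. The shares of all genes were 4.66% higher and 2.25% lower for BMN, 3.53% lower for PAZA and 4.95% lower for the high dose. MMP27 lay below every level of MMP11 (2.55 to 5.4), so its call rests on few fragments and is imprecise.

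**Figure D5:**
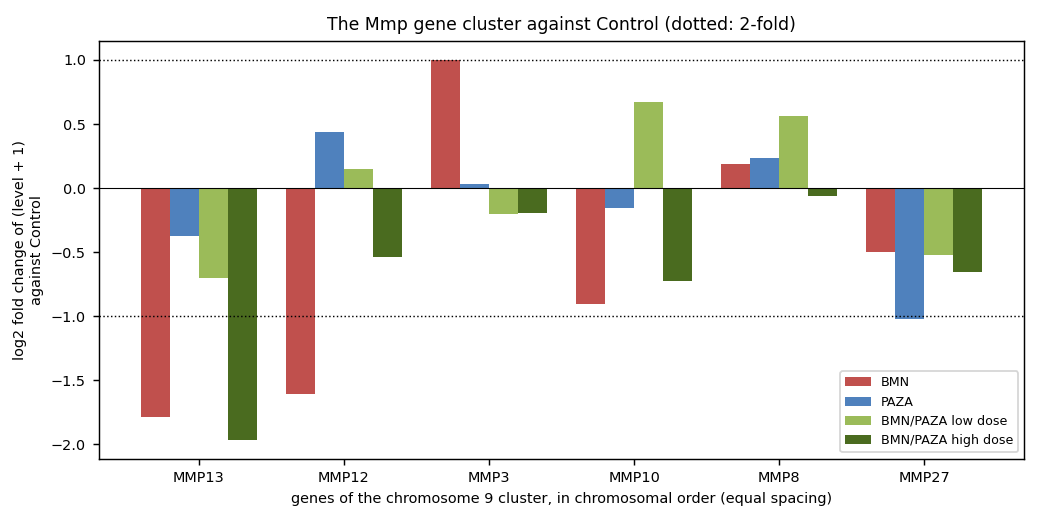
Log2 fold change of level + 1 against Control for the 6 measured genes of the chromosome 9 cluster, in chromosomal order with equal spacing, 1 bar per treated library and dotted lines at 2-fold. In BMN, MMP13 and MMP12 stand at −1.78 and −1.61 beside MMP3 at 1.002, and in BMN/PAZA high dose MMP13 reaches −1.96.

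Other genes of the pathway were read as lists. Of 16 other metalloproteinases, 8 were among the shared symbols, and the highest means were those of MMP19, MMP9 and MMP8. MMP19 was at 6.17 in Control, 13.6 in BMN, 8.03 in PAZA, 8.22 in BMN/PAZA low dose and 8.12 in BMN/PAZA high dose. It was the 1 of 8 past 2-fold higher in BMN against Control, with a log2 fold change of 1.03, near the limit. Some of the 8 stayed below a level of 1 in every library and could not pass 2-fold on log2(level + 1). MMP9, gelatinase B, lay between 4.23 in BMN and 6.13 in PAZA. Among the other inhibitors, 3 of 7 were shared, and all 3 stayed below a level of 1 in every library. On log2(level + 1) such genes cannot pass 2-fold, so no call was possible for them. RECK, a membrane-anchored inhibitor, was at most 0.924, and TIMP4 was at 0 in Control, BMN and BMN/PAZA high dose.

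The ADAM and ADAMTS proteases are relatives that shed membrane proteins or cut proteoglycans, and several are TIMP3 targets. Of 18 measured genes, 0 were past 2-fold in BMN, PAZA or BMN/PAZA high dose against Control, and 1 was lower in BMN/PAZA low dose, beside 3.54% of all genes. Some of the 18 stayed below a level of 1 in every library and could not pass 2-fold. In BMN against Control 15 of 18 were above 0, with a median of 0.43 against 0.09 for all genes. ADAM10, the sheddase with the highest mean, lay between 116 in BMN/PAZA high dose and 159.8 in BMN.

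Plasmin activates several proenzymes, and 6 of 8 genes that activate plasminogen or restrain its activators were measured. Against Control, 2 of 6 were past 2-fold higher in BMN, 1 in PAZA, 1 in BMN/PAZA low dose and 0 in BMN/PAZA high dose, with 0 lower in each, beside 4.66%, 3.47%, 3.65% and 3.2% of all genes. The 2 higher in BMN were the inhibitors SERPINE2 (1.43) and SERPINB2 (1.003), whereas PLAU and PLAUR were both at 0.13 and PLAT, tissue plasminogen activator, at 0.40. SERPINB2 lay at the limit itself, and other scalings were not applied to the lists. PLAU, the urokinase gene, was at 91.8 in Control, 101 in BMN, 122 in PAZA, 131 in BMN/PAZA low dose and 97.2 in BMN/PAZA high dose. Its receptor PLAUR was at 42.7, 46.8, 72.8, 66.2 and 56.8 in the same order. SERPINB2, an inhibitor of urokinase, was at 16.1 in Control, 33.4 in BMN and 46.0 in PAZA, and at 19.6 and 19.2 in the low and high dose.

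The matrix proteins that these enzymes cut differed most in BMN. Against Control, 10 of 20 were past 2-fold higher there, with 0 lower and a median of 0.998, beside 4.66% of all genes. That median lies at the limit, so the count of 10 could shift with the scaling. The counts were 0 of 20 in PAZA, 0 in BMN/PAZA low dose and 1 in BMN/PAZA high dose, again with 0 lower. Against BMN, 6 of 20 were past 2-fold lower in BMN/PAZA low dose and 6 in BMN/PAZA high dose, beside 5.86% and 6.89% of all genes, whose medians were −0.14 and −0.27. FN1, fibronectin, the matrix gene of highest level, was at 1098 in Control, 981 in BMN, 915 in PAZA, 1131 in BMN/PAZA low dose and 836 in BMN/PAZA high dose. COL3A1, a fibrillar collagen that MMP13 cuts, was at 208, 552, 378, 208 and 220.1 in the same order. Several of these genes are also in the fibroblast list, whose sum was 1054 in BMN against 388 in Control.

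Of 12 genes for inducers of metalloproteinases and AP-1 subunits, 0 were past 2-fold in BMN or BMN/PAZA low dose against Control, 1 was higher in PAZA, beside 3.47% of all genes, and 1 lower in BMN/PAZA high dose, beside 4.95%. BSG, a membrane protein that induces metalloproteinases in neighboring fibroblasts, was at 186 in Control, 206 in BMN, 226 in PAZA, 273 in BMN/PAZA low dose and 197 in BMN/PAZA high dose. JUN, an AP-1 subunit, was at 85.9, 88.5, 73.7, 73.1 and 69.5 in the same order. FOS, the partner of JUN in AP-1, was at 12.4, 24.3, 14.7, 12.1 and 10.6, with BMN the highest library.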

How the data were processed

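RNA was sequenced from 5 groups with 1 library each. Per the labels, reads were mapped to GRCm38, and HISAT2 and StringTie are named in the submitters' processing notes without versions. The authors deposited 5 tables of 2 groups with no unit name, and the deposited values were read as FPKM from their form. In the table of the low and high dose, the low-dose column had been multiplied: 99.99% of its values had at most 6 digits after division by 3.6, and 11.0% before. A library's values kept 1 ratio between tables for all 10 genes (within 0.5%).

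Control and PAZA, BMN and BMN/PAZA high dose, and BMN/PAZA low dose were taken from 3 tables. The row with the highest mean was used for a repeated symbol (0 of the 10 genes), and each column was scaled to a sum of 1e+06 over 13979 shared symbols. Fold changes used log2(level + 1), so those of low genes are understated, and 2-fold was the limit. Shares of all genes were taken over those above 0 in either library. With a single library for each group, no test was possible. Mitochondrial rRNA and RN7SK held 29.4% to 38.1% of the scaled sums.

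The depth is unknown from the deposited values. Fragments per library were estimated from the commonest product of FPKM and transcript length among weakly expressed genes with 1 transcript, and fragments per gene from the longest transcript, as approximations.

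Genes and lists were chosen with earlier results of these data known. All 10 genes are named. Of each list (other metalloproteinases, other inhibitors, ADAM and ADAMTS, plasminogen activation, matrix substrates, inducers, cell markers, genes flanking the cluster) the 3 of highest mean could be named, besides genes past 2-fold against Control in all 4 treated libraries and genes of the cluster. BIRC2, FOS, SERPINE2, PLAT and markers at 0 were named after their values were seen. Coordinates are from GENCODE M21 and promoters from RefSeq (GRCm38.p6).

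Alternatives were a pseudocount of 0.1, a minimum of 5 for the higher level, other scalings, the same library from another table, summed rows and tables as deposited. Steps were tested on simulated data with Python 3.11.15, numpy 2.4.6 and pandas 2.3.3, and figures drawn with matplotlib 3.10.9.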

Additional observations from a re-analysis of the deposited data

Results flagged for a closer look

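The effect of BMN was available with and without the carrier: BMN against Control, and BMN/PAZA low dose against PAZA, which share no library. For 2 of the 10 genes the 2 effects had opposite signs and a size of at least 0.5 each, as for 4.84% of all 13979 genes. MMP10 was lower in BMN than in Control, with a log2 fold change of −0.90 (9.61 to 4.68), and higher in BMN/PAZA low dose than in PAZA, with one of 0.83 (8.55 to 15.9). In BMN/PAZA high dose, however, MMP10 was at 5.43, below PAZA as BMN was below Control, and TIMP1 was at 103. TIMP1 was higher in BMN than in Control, with 0.56 (104 to 153), and lower in BMN/PAZA low dose than in PAZA, with −0.70 (188 to 116). On the log2(level + 1) scale none of the 4 values reached 2-fold, but MMP10 in BMN against Control was −1.02 with a pseudocount of 0.1 and −1.05 with the sum taken without the 100 most abundant symbols. Each value rests on 1 library per group, so the difference between the 2 effects was not tested. MMP10 rests on an estimated 34 to 99 fragments per library and TIMP1 on 335 to 628.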

How the results depend on the processing

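Of the counts of genes past 2-fold in either direction, 80 were within 1.5 times the reported value under the alternatives and 2 were not. With a pseudocount of 0.1, BMN/PAZA low dose against Control had 1 gene past 2-fold in place of 0 (TIMP3, −1.01). In the table of the low and high dose as deposited, 10 of 10 genes were past 2-fold lower in the high dose in place of 2, since its low-dose column was multiplied, and scaling each column of that table to 1e+06, chosen after seeing the data, gave 2 again. By direction, BMN against Control had 1 higher in place of 2 under the median of ratios, without the 100 most abundant symbols and with summed rows. It had 3 lower in place of 2 with a pseudocount of 0.1 and without those symbols. The low dose against BMN had 2 lower in place of 1 with a pseudocount of 0.1 or the shared table scaled, and 0 in that table as deposited. The high dose against BMN had 2 lower in place of 3 under the median of ratios, without those symbols and in the shared table as deposited. Of the single log2 values, 20 crossed 2-fold and 795 did not. None of those past 2-fold changed sign, and 29 of the others did, with a reported size of at most 0.19, of which 10 under the median of ratios and 11 with the sum taken without the 100 most abundant symbols. MMP3 in BMN against Control was 0.89 under the median of ratios, 0.96 without those symbols and 0.997 with summed rows. MMP10 in the same comparison was −1.02 with a pseudocount of 0.1 and −1.05 without the 100 symbols. Scaling moved the balance of all genes: under the median of ratios the share of calls that were higher went from 49.6% to 60.3% in PAZA against Control, from 39.3% to 61.1% in BMN/PAZA high dose against Control, from 35.5% to 59.4% in the low dose against BMN, from 25.3% to 58.4% in the high dose against BMN from 40.9% to 55.2% between the doses, from 67.4% down to 59.6% in BMN against Control and from 46.8% down to 44.1% in the low dose against PAZA, and without the 100 symbols from 50.8% to 63.2% in the low dose against Control. Without those symbols, PAZA against Control had 937 genes higher and 694 lower in place of 485 and 493, and with a pseudocount of 0.1 it had 1467 and 1348. Leaving mitochondrial rRNA and RN7SK out of the sum, chosen after seeing the data, changed no call among the 10 genes. No paired analysis was possible because each group has 1 library, and for the same reason no replicate could be left out. The alternatives were applied to the 10 genes and to all genes, not to the lists. The estimated depth limits MMP11, MMP10 and MMP3 most.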

Other observations

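The genes that flank the metalloproteinase cluster on chromosome 9 were read as a further list of 6. YAP1, a growth regulator of the Hippo pathway, was at 48.2 in Control, 42.4 in BMN, 26.3 in PAZA, 23.1 in BMN/PAZA low dose and 21 in BMN/PAZA high dose, so the 3 libraries with PAZA lay below the 2 without it. BIRC2, an inhibitor of apoptosis, was at 40.1 in Control, 41.6 in BMN, 16.0 in PAZA, 37.1 in BMN/PAZA low dose and 24.0 in BMN/PAZA high dose. Against Control, 1 of the 6 was past 2-fold lower in PAZA (BIRC2), in BMN/PAZA low dose (YAP1) and in BMN/PAZA high dose (YAP1), and 0 were in BMN, beside 3.53%, 3.54%, 4.95% and 2.25% of all genes. YAP1 lay near the limit, at −1.03 in the low and −1.16 in the high dose, and other scalings were not applied to this list. DCUN1D5 was higher than in Control in each treated library, from 71.0 in Control to 98.3 in PAZA. Each is a value of 1 library per group.

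ACTA1, skeletal muscle actin, was past 2-fold against Control in all 4 treated libraries, at 0.199 in Control, 19.8 in BMN, 6.16 in PAZA, 1.69 in BMN/PAZA low dose and 25.4 in BMN/PAZA high dose, and no other gene of the lists was so in 1 direction.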
